A study of Mus musculus with 21 samples.

Results

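The 41 genes described here encode nucleolar proteins, ribosome assembly factors and other known targets of the transcription factor MYC. They were taken as a list of symbols, and all 41 were held by each of the 4 log2 CPM tables, out of 9973 genes that the tables share and 14698 that at least 1 table holds. RNA was sequenced from Ba/F3 cells, murine pro-B cells in continuous culture that normally depend on interleukin-3 and that were made to express human JAK2-V617F, the kinase mutation of myeloproliferative neoplasms, by retroviral transfer. All 21 libraries came from these JAK2-V617F cells, in 7 groups of 3. DMSO_treated, Ruxo_treated and CHZ_treated cells were kept for 6 h with solvent, with 1 μM ruxolitinib (a type I inhibitor, which binds the active form of the kinase) or with 1 μM CHZ868 (a type II inhibitor, which binds the inactive form). Ruxo_wash cells had 1 h of 1 μM inhibitor, were washed with PBS and were harvested after 6 h without it. The study's methods give this schedule for the ruxolitinib washout, and the same was taken for the CHZ_wash cells. DMSO_wash and DMSO_wash_exp3 cells were the solvent controls of the ruxolitinib and the CHZ868 washout experiment, taken to have gone through the same steps. The labels do not say whether the 3 libraries of a group came from separate cultures, so the p-values measure the spread between these libraries, which may be technical.

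Ribosomes are built in the nucleolus. RNA polymerase I transcribes the precursor rRNA, small nucleolar ribonucleoproteins (snoRNPs) guide its methylation and pseudouridylation, a large processome cuts it and folds the small subunit, and a separate chain of GTPases, helicases and placeholder proteins assembles the large subunit. MYC binds E-box sequences with its partner MAX and raises transcription of many of these factors, and in haematopoietic cells JAK2 and STAT5 signalling feeds into MYC. An mRNA level is a share of the RNA in a library, so a lower share and fewer molecules per cell cannot be told apart in bulk RNA.

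The genes lie on 16 chromosomes and all are protein coding in the GENCODE annotation of GRCm38. A minority of the genes have an E-box in the promoter, a feature that the list of symbols did not use directly but that is not independent of their choice as MYC targets. RefSeq promoter windows (GRCm38.p6, 250 bases before to 50 bases after the start) were matched by symbol for 36 of the 41 genes. Of their 39 windows 13 (33.3%) held CACGTG, a palindrome that reads the same on both strands, against 10.1% of the 10738 windows of genes in the 6 h CHZ868 table and 7.15% of all 32851 windows. The motif TTCNNNGAA, the core of STAT binding sites, was searched on both strands and was in 5.13% of the genes' windows, 6.92% of those of the 6 h table and 8.3% of all windows. A match describes the letters only and shows no binding. The 12 genes with an E-box had it before the start (5 genes) or after it (7 genes). The windows of 6 of them are shown, with the E-box in capitals, because they span the responses described below: Ipo4 and Pus1 are among the 6 largest falls with CHZ868, Exosc5 and Nop2 fell less, Pes1 rose and Imp4 did not pass the test. Each is written in the direction of transcription. Distances run to the first base of the motif and count the start base for motifs after the start, but not for those before it. For Pus1 the first start is the first by coordinate. Another Pus1 start lies upstream of it in the direction of transcription, with the same motif 23 bases after that start.
Ipo4, chr14:55635653-55635682, minus strand, motif 15 bases after the start: tgtcggagtctcCACGTGccgatcctcccc
Pus1, chr5:110780576-110780605, minus strand, motif 4 bases after the first start: tccgccttcgtgCACGTGgtcagcttcggg
Exosc5, chr7:25659097-25659126, plus strand, motif 44 bases before the start: taaacgctgagcCACGTGctagggccaact
Nop2, chr6:125131811-125131840, plus strand, motif 60 bases before the start: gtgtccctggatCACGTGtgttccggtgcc
Pes1, chr11:3963965-3963994, plus strand, motif 3 bases after the start: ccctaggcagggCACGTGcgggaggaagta
Imp4, chr1:34439696-34439725, plus strand, motif 121 bases before the start: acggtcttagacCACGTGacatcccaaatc

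A smaller number, 6 of the 41 genes (14.6%), carry small nucleolar RNA genes inside their own span, 18 in all, against 226 of 11166 genes (2.02%) in the 6 h CHZ868 table. The hosts are Nop56 with 5, Gnl3, Ncl and Wdr43 with 3 each, and Ppan and Tbrg4 with 2 each.

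Depth on the listed genes was 7880000 to 10670000 reads per library in 3 of the tables and is unknown for the ruxolitinib washout table. Of 12 pro-B and haematopoietic markers 6 were listed in every table, and 6 in none, among them Ebf1, Pax5 and Vpreb1. Each table passed a filter on low expression, so an unlisted gene may be low or absent. Of 9 myeloid and mast cell markers 2 were listed in every table, and of 6 erythroid and megakaryocyte markers 4. At 6 h some of the 12 listed markers moved with the inhibitors. Of the 4 erythroid and megakaryocyte markers, CHZ868 raised Klf1 (log2 fold change 1.16), Gata1 (0.47) and Epor (0.39) and lowered Itga2b (-0.94), by limma at an adjusted p of at most 0.0299, and their centred differences with ruxolitinib were 0.96, 0.58, 0.85 and -0.33. The centred levels of these 4 were also summed on the linear scale, where Itga2b weighed most. The log2 of that sum was 4.60 to 4.62 in DMSO, 4.23 to 4.39 with CHZ868 and 4.42 to 4.75 with ruxolitinib. Of the 2 myeloid markers CHZ868 lowered Csf1r, and of the 6 pro-B and haematopoietic markers it lowered 3 and raised 1. Levels of these lists summed in the same way were 4.17 to 4.25 and 6.46 to 6.49 in DMSO. They were 4.20 to 4.32 and 6.13 to 6.27 with CHZ868 and 4.41 to 4.57 and 6.25 to 6.51 with ruxolitinib. Gata2 weighed most in the myeloid sum, and Csf2rb and Csf2rb2 in the pro-B sum. The part of these marker changes in the results below was not tested. Ruxo_treated replicate 2, DMSO_wash_exp3 replicate 3 and DMSO_wash replicate 2 stood apart from their own groups, with SDs of the log2 difference to the other replicates of 0.314 to 0.331, 0.274 to 0.359 and 0.327 to 0.329, against 0.152, 0.157 and 0.177 between those others. Results that rest on them are given with and without them.

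Treatment with CHZ868 for 6 h lowered most of the 41 genes, with the largest falls in the importin Ipo4 (log2 fold change -1.42), the U3 snoRNP protein Rrp9 (-1.39) and the pre-40S factor Rrp12 (-1.18). Of the 41 genes 29 fell, 6 rose and 6 did not pass the threshold (limma-trend, Benjamini-Hochberg adjusted p under 0.05 over the 11670 genes of the table). The background was 26.4% of all genes called lower and 26.8% called higher, beside 70.7% and 14.6% of these genes. Their median log2 fold change was -0.54, against -0.01 over all genes. Standard errors ran from 0.06 to 0.25, with n = 3 libraries per group. Of the 12 genes with an E-box in the window 9 fell and 1 rose (median -0.59), and of the 24 matched genes without it 17 fell and 3 rose (median -0.52). All 6 hosts of small nucleolar RNAs fell (median -0.59), and of the 35 other genes 23 fell and 6 rose (median -0.50).

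**Figure D1:**
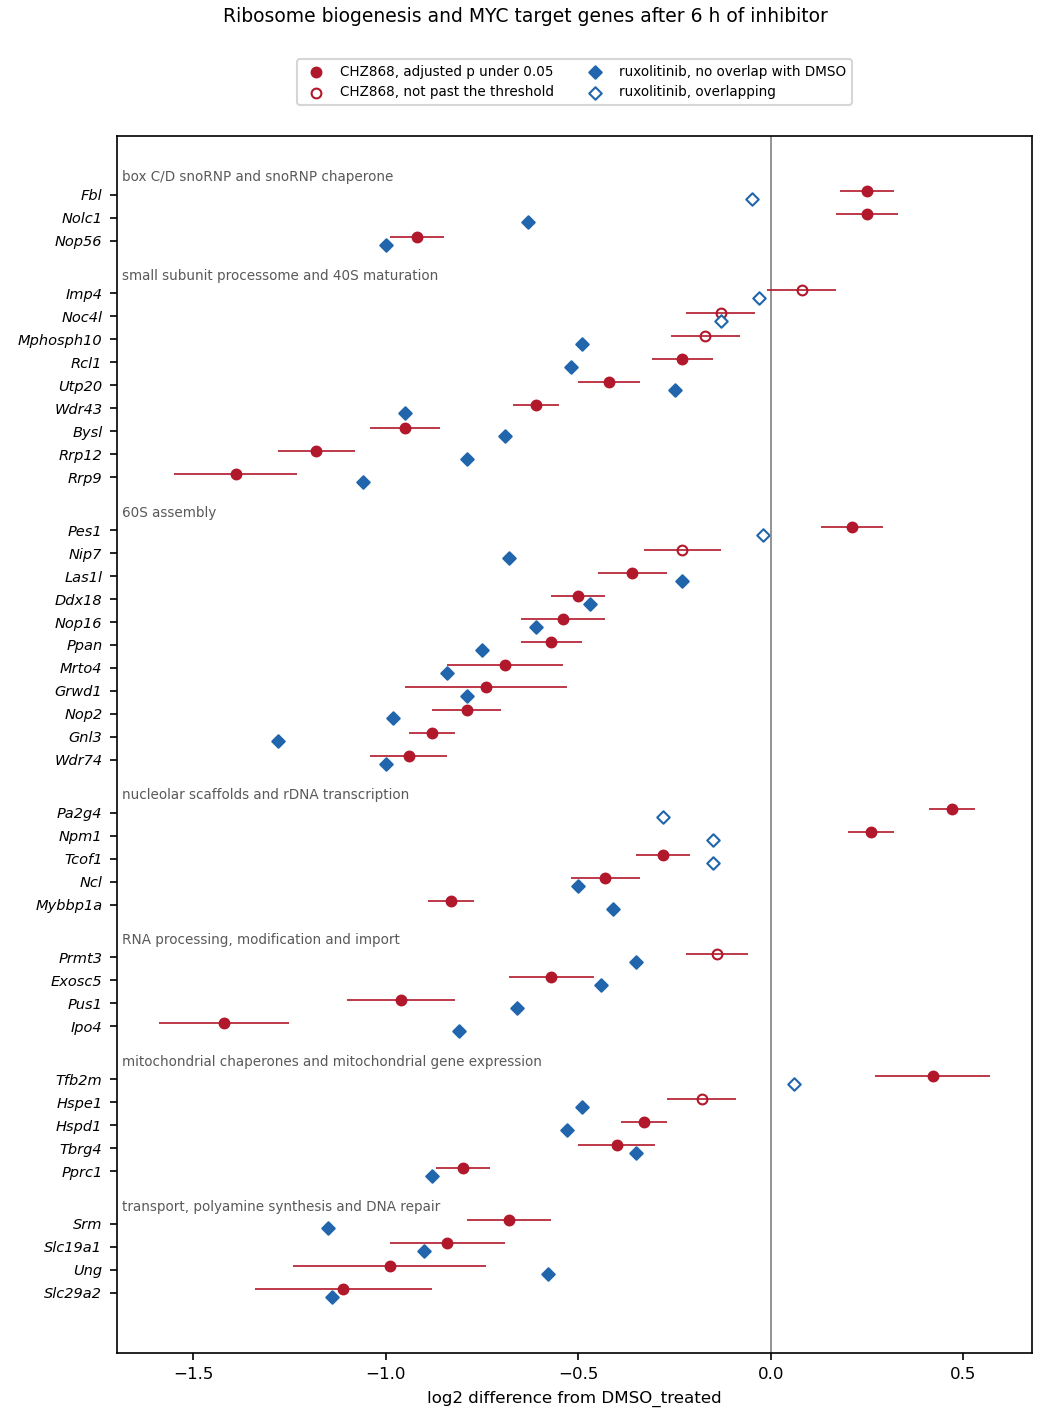
Log2 difference from DMSO_treated of the 41 genes, grouped by role, after 6 h of CHZ868 (circles, bars are 1 standard error, n = 3 per group) or ruxolitinib (diamonds, median-centred values, no test). Filled circles passed an adjusted p of 0.05 and filled diamonds are genes whose 3 and 3 libraries do not overlap: 29 circles are filled on the left of 0 and 6 on the right, and all 33 filled diamonds are on the left.

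The 6 largest falls show the size of the change in single libraries. Values here are log2 CPM minus the median of the library over 11624 shared genes, which puts the 9 libraries of the 6 h experiment on one scale. Ipo4, an importin that carries histones and ribosomal proteins into the nucleus, was at -0.51, -0.31 and -0.42 in DMSO-treated cells, at -1.81, -1.54 and -2.08 with CHZ868 and at -1.35, -1.40 and -0.92 with ruxolitinib. Rrp9, a protein bound to the U3 snoRNA, was at -0.58, -0.51 and -0.66 in DMSO, at -1.89, -2.15 and -1.80 with CHZ868 and at -1.38, -2.08 and -1.47 with ruxolitinib. Both genes were well below every DMSO library in all 6 inhibitor libraries. The fall with CHZ868 was 2.68-fold for Ipo4 (SE 0.17, adjusted p = 4.3e-06) and 2.62-fold for Rrp9 (SE 0.16, adjusted p = 3.39e-06), by limma. The longest Ipo4 transcript matches one of the gene Gm49378 at 100% identity, so the split of reads between them is uncertain.

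Rrp12, which accompanies the pre-40S particle, was at 1.40, 1.36 and 1.34 in DMSO, at -0.02, 0.21 and 0.46 with CHZ868 and at 0.61, 0.43 and 0.71 with ruxolitinib. Slc29a2, a nucleoside transporter, was at -1.84, -1.86 and -1.80 in DMSO, at -2.71, -2.76 and -3.28 with CHZ868 and at -3.16, -2.88 and -2.86 with ruxolitinib. The DMSO libraries of both genes lay close together and above all inhibitor libraries. Ung, the uracil-DNA glycosylase of base excision repair, was at -1.48, -1.66 and -1.73 in DMSO, at -3.19, -2.40 and -2.18 with CHZ868 and at -2.17, -2.18 and -2.27 with ruxolitinib. Pus1, a pseudouridine synthase, was at 0.10, 0.10 and 0.16 in DMSO, at -0.45, -0.94 and -1.04 with CHZ868 and at -0.37, -0.65 and -0.60 with ruxolitinib. The CHZ868 libraries of Ung and Pus1 were spread more widely than their DMSO libraries, with no overlap between the groups. The log2 fold changes with CHZ868 were -1.18 for Rrp12 (SE 0.10, adjusted p = 2.46e-07), -1.11 for Slc29a2 (SE 0.23, adjusted p = 0.000948), -0.99 for Ung (SE 0.25, adjusted p = 0.00415) and -0.96 for Pus1 (SE 0.14, adjusted p = 5.22e-05), by limma. Slc29a2 and Ung had the fewest reads of the 41 genes, 29 to 55 and 39 to 64 per CHZ868 library, and the largest standard errors.

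**Figure D2:**
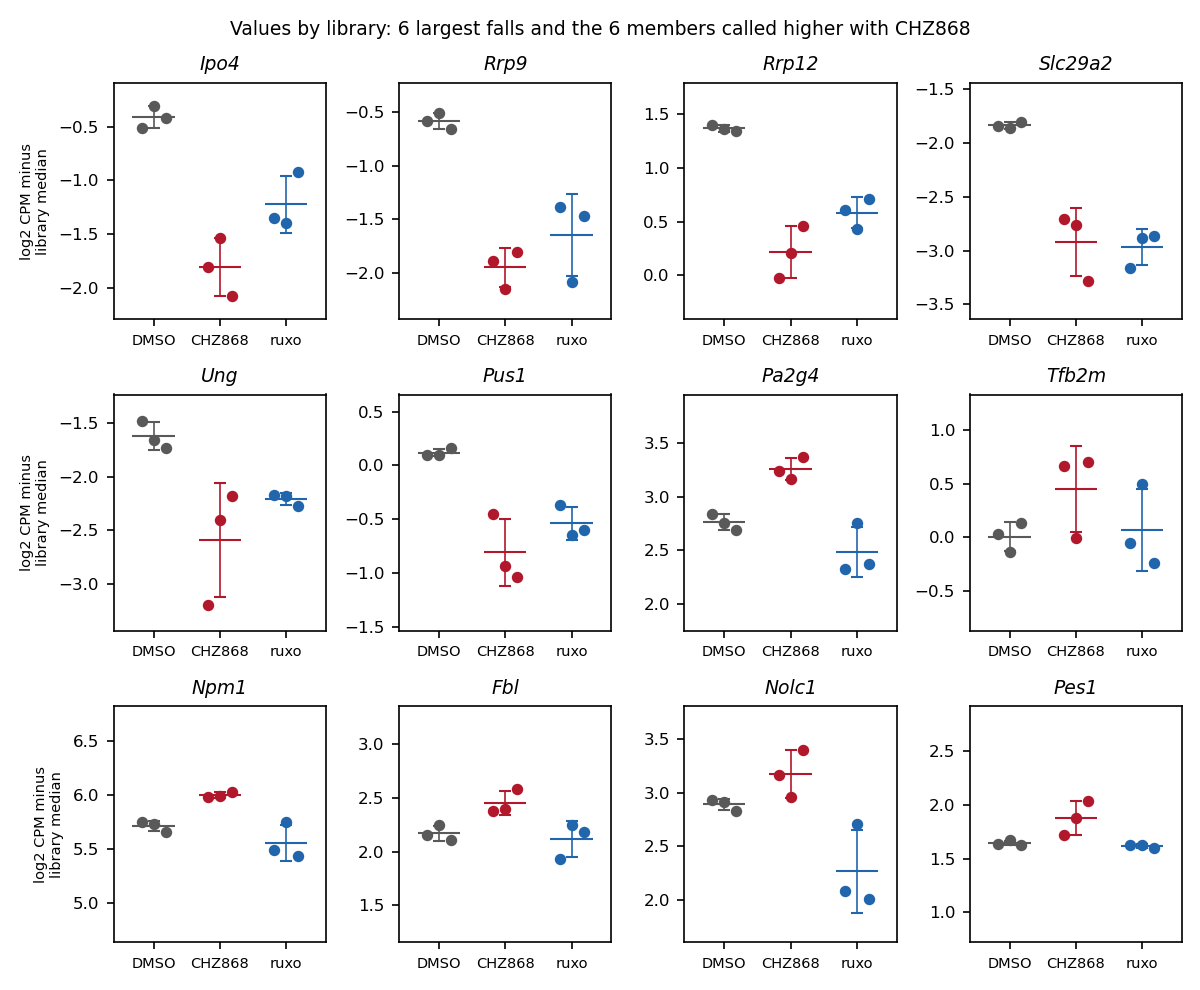
Log2 CPM minus the library median for the 6 genes with the largest falls and the 6 genes called higher with CHZ868, in the 3 DMSO, 3 CHZ868 and 3 ruxolitinib libraries (points; lines and bars are the mean and SD, and all panels span the same range of log2 units). Ipo4 to Pus1 are below DMSO in all 6 inhibitor libraries, and Pa2g4, Npm1 and Nolc1 are above DMSO with CHZ868 while their ruxolitinib libraries reach at most 2.75, 5.75 and 2.71.

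The 4 classic nucleolar markers did not move together with CHZ868. Nop56, a core protein of box C/D snoRNPs, was at 2.75, 2.66 and 2.78 in DMSO, at 1.84, 1.74 and 1.93 with CHZ868 and at 1.63, 1.70 and 1.85 with ruxolitinib, and fell by 0.92 on the log2 scale with CHZ868 (SE 0.07, adjusted p = 2.1e-08). Ncl, nucleolin, which binds rDNA chromatin and pre-rRNA, was at 5.51, 5.43 and 5.41 in DMSO, at 4.84, 5.00 and 5.30 with CHZ868 and at 4.95, 5.05 and 4.85 with ruxolitinib, and fell by 0.43 (SE 0.09, adjusted p = 0.000742). Both were lower in every inhibitor library than in any DMSO library. Fbl, fibrillarin, the methyltransferase of the same snoRNPs as Nop56, was at 2.15, 2.25 and 2.11 in DMSO, at 2.38, 2.40 and 2.58 with CHZ868 and at 1.93, 2.25 and 2.18 with ruxolitinib. Npm1, nucleophosmin, a nucleolar scaffold and histone chaperone, was at 5.75, 5.73 and 5.66 in DMSO, at 5.98, 5.99 and 6.03 with CHZ868 and at 5.49, 5.75 and 5.43 with ruxolitinib. Fbl and Npm1 were above DMSO in all 3 CHZ868 libraries and overlapped with DMSO in the ruxolitinib libraries. Their log2 fold changes with CHZ868 were 0.25 (SE 0.07, adjusted p = 0.0063) and 0.26 (SE 0.06, adjusted p = 0.00115). The Npm1 value turned to -0.37 after quantile normalization, and the Fbl call was lost there.

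Besides Fbl and Npm1, 4 genes passed the test as higher with CHZ868. Pa2g4, which binds pre-ribosomes and rRNA, was at 2.84, 2.75 and 2.69 in DMSO, at 3.24, 3.16 and 3.37 with CHZ868 and at 2.33, 2.75 and 2.37 with ruxolitinib. Nolc1, a chaperone of snoRNPs, was at 2.93, 2.91 and 2.83 in DMSO, at 3.16, 2.96 and 3.40 with CHZ868 and at 2.08, 2.71 and 2.01 with ruxolitinib. For both genes all CHZ868 libraries were above the DMSO libraries, and with ruxolitinib Nolc1 was below them in every library while Pa2g4 overlapped with them in replicate 2. Tfb2m, a transcription factor of the mitochondrial genome, was at 0.03, -0.14 and 0.13 in DMSO, at 0.66, -0.01 and 0.70 with CHZ868 and at -0.05, 0.50 and -0.24 with ruxolitinib. Pes1, of the PeBoW complex that processes large-subunit rRNA, was at 1.64, 1.67 and 1.63 in DMSO, at 1.72, 1.88 and 2.04 with CHZ868 and at 1.63, 1.63 and 1.60 with ruxolitinib. CHZ868 replicate 2 of Tfb2m lay within the DMSO range. The log2 fold changes with CHZ868 were 0.47 for Pa2g4 (SE 0.06, adjusted p = 2.44e-05), 0.42 for Tfb2m (SE 0.15, adjusted p = 0.0305), 0.25 for Nolc1 (SE 0.08, adjusted p = 0.0188) and 0.21 for Pes1 (SE 0.08, adjusted p = 0.0377), by limma.

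Pa2g4 alone of the 6 rises kept its call in all 14 fits, the main one and 13 alternatives, whereas 27 of the 29 falls did, with Rcl1 and Tcof1 as the exceptions. Of the 6, Npm1 has 7 near copies in the annotation, Pes1 has 2 (up to 95.4% identical), Tfb2m has 1 (99.3%) and Pa2g4 has 1 (92.7%), so reads could be split between copies. The share of mitochondrially encoded transcripts, over the 14 such genes that all tables hold, also differed between the groups. It was 1.36% to 1.42% of CPM in DMSO-treated, 4.92% to 6.37% in CHZ868-treated and 1.70%, 3.53% and 1.72% in ruxolitinib-treated libraries. In the ruxolitinib library at 3.53%, replicate 2, all 6 genes that rose with CHZ868 were above both other ruxolitinib libraries (by 0.02 to 0.66 over their mean), against 8 of the 29 that fell. In DMSO_wash_exp3 replicate 3, which had 5.33% against 2.84% and 2.27% in its group, Nolc1, Npm1, Pa2g4 and Tfb2m were 0.65, 0.31, 0.35 and 0.34 above the mean of the other 2 libraries, while Fbl and Pes1 were -0.23 and -0.14 from it. In that library 7 of the 29 genes that fell were above both others of the group and 20 were below both. The part of the mitochondrial share in the CHZ868 rises was not tested. GC content of the longest transcript had a median of 54.5% for the 29 genes that fell and 49.4% for the 6 that rose. It was 45.5% for the 6 genes not called and 49.4% over 11166 genes of the 6 h CHZ868 table. With a GC and length trend removed from each library, an alternative chosen after the values were seen, 32 genes were lower and 4 higher. The shares of all genes called in that fit are not given here, so these counts have no matching background. The part of GC content in these changes was not tested.

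By role, the changes with CHZ868 ran from uniform to mixed, beside a background of 26.4% of all genes called lower and 26.8% called higher. All 4 genes for transport, polyamine synthesis and DNA repair fell (median -0.92), as did 9 of 11 factors of 60S assembly (median -0.57). In the latter group Wdr74, a factor of early pre-60S particles, fell by 0.94 (SE 0.10, adjusted p = 2.7e-06 by limma) and Gnl3, the nucleolar GTPase nucleostemin, fell by 0.88 (SE 0.06, adjusted p = 2.77e-08 by limma). Nop2, an rRNA methyltransferase, had a log2 fold change of -0.79, and the pre-60S factor Ppan and the helicase Ddx18 of -0.57 and -0.50. Of the 9 small subunit factors 6 fell and none rose (median -0.42): besides Rrp9 and Rrp12, these were Bysl (-0.95), Wdr43 (-0.61), Utp20 (-0.42) and Rcl1 (-0.23). Imp4 and Mphosph10, which form a complex in the small subunit processome, were at 0.08 (SE 0.09) and -0.17 (SE 0.09) and did not pass the test. Among the nucleolar scaffolds Mybbp1a, a regulator of rDNA transcription, fell by 0.83 (SE 0.06, adjusted p = 2.43e-08 by limma), and Tcof1, the treacle protein that recruits RNA polymerase I factors, fell by 0.28. Of the mitochondrial genes the coactivator Pprc1 fell by 0.80 and the chaperonin Hspd1 by 0.33, while its co-chaperonin Hspe1, which is transcribed from the other strand next to it, was at -0.18 (SE 0.09, adjusted p = 0.0847 by limma). Exons of Hspd1 and Hspe1 overlap on opposite strands, as do exons of 15 of the 41 genes with another gene, and whether counting used strand is not stated.

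With CHZ868 other genes of the pathway moved in both directions, more of them down than up. The background in the 6 h CHZ868 table was 26.4% of all genes called lower and 26.8% called higher. Of 116 further ribosome biogenesis genes in that table, 50 fell and 17 rose with CHZ868 (43.1% and 14.7%, median -0.15), against 29 and 6 of the 41. That difference in shares was not tested. The largest falls were Polr1b, the second largest subunit of RNA polymerase I (-1.50, SE 0.10, adjusted p = 1.42e-08 by limma), and Rrp1b of the 60S pathway (-1.40, SE 0.10, adjusted p = 1.59e-08 by limma). The largest rises were Rpf1, a 60S assembly factor (1.13, SE 0.08, adjusted p = 1.35e-08 by limma), and Naf1, an assembly factor of H/ACA snoRNPs (0.72, SE 0.08, adjusted p = 3.02e-06 by limma). Their centred differences with ruxolitinib were -1.14, -1.01, 0.05 and -0.14. With ruxolitinib 63 of the 116 genes (54.3%) lay below DMSO without overlap and 2 (1.72%) above, with a median difference of -0.30. The background was 20.1% lower and 24.6% higher over 11624 shared genes, and no test was run.

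**Figure D3:**
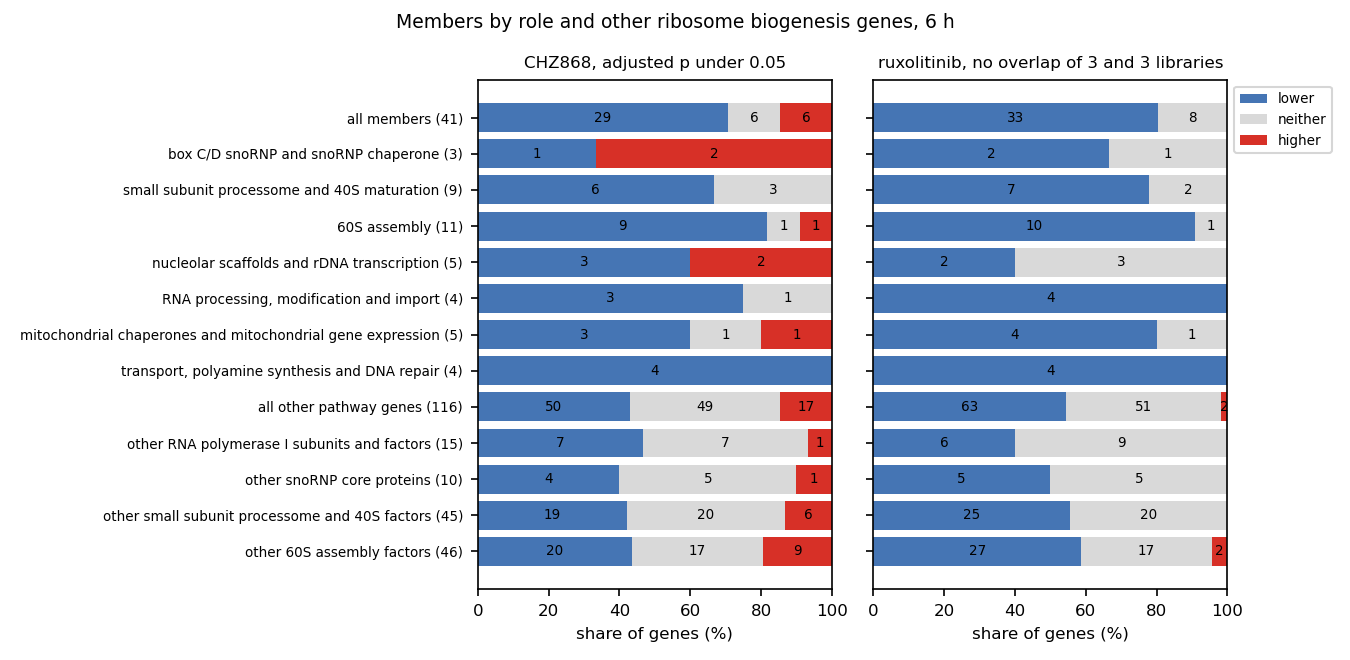
Share of genes called lower, higher or neither with CHZ868 (left, adjusted p under 0.05) and with ruxolitinib (right, no overlap of 3 and 3 libraries) for the 41 genes, their 7 role groups and 116 other ribosome biogenesis genes in 4 groups. Numbers on the bars count genes: 29 of 41 are lower on the left and 33 of 41 on the right. None of the 41 and 2 of the 116 are higher on the right. Over all genes 26.4% were lower and 26.8% higher by the rule on the left, and 20.1% and 24.6% by that on the right.

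After 6 h of ruxolitinib most of the 41 genes were below DMSO, led by the nucleolar GTPase Gnl3 and by Srm, the spermidine synthase. The ruxolitinib and DMSO libraries are in tables that were normalized separately, so no test was run, and the difference of the centred means is given with the count of genes whose 3 libraries of one group all lie beyond the 3 of the other. By that rule 33 of the 41 genes were lower and 0 higher, with a background of 20.1% lower and 24.6% higher over 11624 shared genes. The median difference was -0.58, against 0.04 over all genes. The lowest values were in Gnl3 (-1.28), Srm (-1.15), Slc29a2 (-1.14) and Rrp9 (-1.06). Srm was at 0.62, 0.66 and 0.55 in DMSO, at -0.69, -0.37 and -0.54 with ruxolitinib and at -0.20, -0.17 and 0.24 with CHZ868. Every inhibitor library of Srm was below every DMSO library, and the CHZ868 libraries lay between. All 11 factors of 60S assembly had negative differences and 10 did not overlap (median -0.75), with Pes1 at -0.02 as the exception. All 6 hosts of small nucleolar RNAs lay below DMSO without overlap (median difference -0.85). Of the 35 other genes 27 did so (median difference over the 35 of -0.53). The 8 genes that overlapped were Fbl, Noc4l, Imp4, Pes1, Npm1, Tcof1, Pa2g4 and Tfb2m. Without ruxolitinib replicate 2, 37 genes were lower and the rest overlapped, with a background of 25.7% lower and 31.6% higher for 2 against 3 libraries. Noc4l, Npm1, Tcof1 and Pa2g4 were added, and the difference was -0.25 for Npm1 and -0.41 for Pa2g4.

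Myc, the regulator upstream of the list, was at 3.29, 3.40 and 3.44 in DMSO, at 3.25, 3.02 and 3.12 with CHZ868 and at 1.97, 3.04 and 2.20 with ruxolitinib. All inhibitor libraries were below the DMSO libraries, and ruxolitinib replicate 2 lay among the CHZ868 libraries. The fall with CHZ868 was 0.27 on the log2 scale (SE 0.07, adjusted p = 0.00272 by limma). The centred difference with ruxolitinib was -0.97 and, without replicate 2, -1.29.

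CHZ868-treated and ruxolitinib-treated libraries were also set directly against each other, a comparison that was chosen after the values were seen and has no test. Centred values did not overlap for 16 of the 41, of which 13 were higher and 3 lower with CHZ868, with a background of 16.7% higher and 18.6% lower. Nolc1 was 0.91 higher with CHZ868, Pa2g4 0.77, Srm 0.49, Nip7 0.47, Npm1 0.44 and Gnl3 0.43. The 3 genes lower with CHZ868 were Ipo4 (-0.58), Mybbp1a (-0.40) and Utp20 (-0.15). The median difference was 0.11. Without ruxolitinib replicate 2, 19 genes were higher and 6 lower, with a background of 28.7% in each direction.

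**Figure D4:**
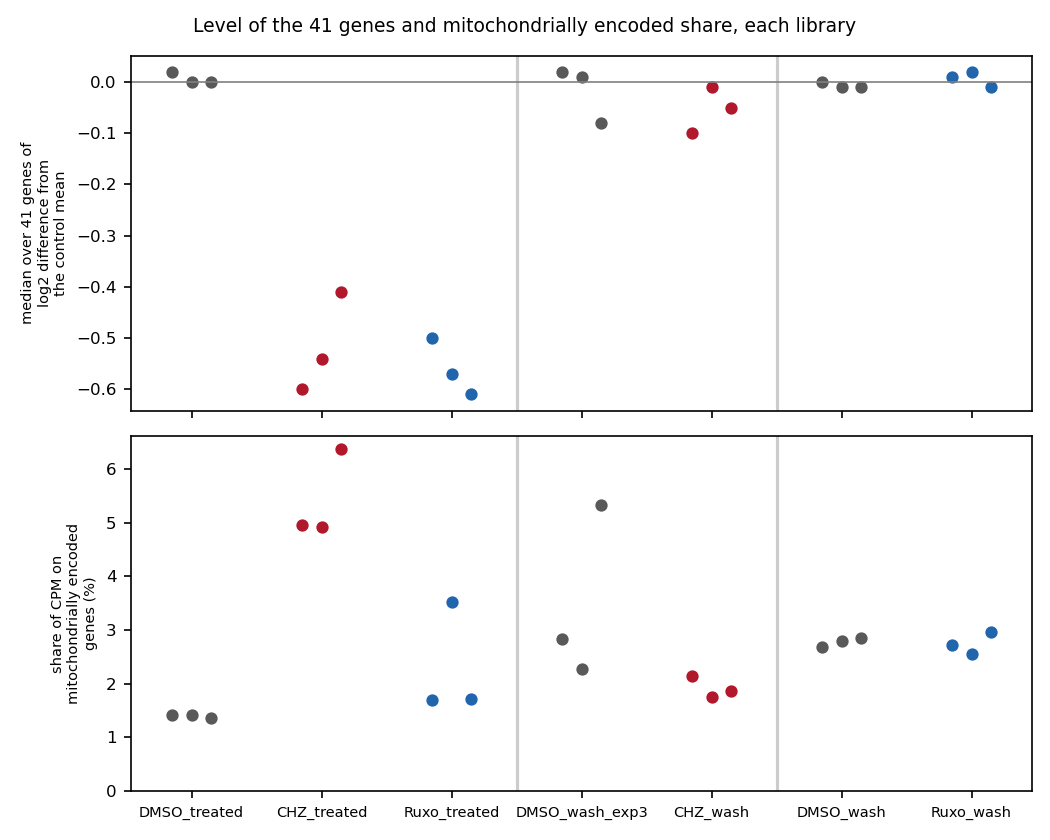
Median over the 41 genes of the log2 difference from the mean of the control group (top) and percent of CPM on 14 mitochondrially encoded genes (bottom) in each of the 21 libraries. The 3 CHZ868-treated libraries lie at -0.60, -0.54 and -0.41 and the 3 ruxolitinib-treated at -0.50, -0.57 and -0.61, while all 12 washout libraries lie between -0.10 and 0.02. The mitochondrial share is highest with CHZ868, at 6.37%.

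At 6 h after washout of CHZ868, the share of the 41 genes called was near that of all genes. Of the 41 genes 1 (2.44%) was lower, Srm, and 0 were higher (limma-trend over 11355 genes, with a background of 2.07% lower and 1.96% higher). Of the 41, 9 had an unadjusted p under 0.05 by limma, as did 2767 of all 11355 genes. The median log2 fold change was -0.07 and 22 genes were negative. Srm was at deposited log2 CPM values of 7.43, 7.37 and 7.37 in DMSO_wash_exp3 and of 6.98, 7.03 and 7.08 in CHZ_wash, with no overlap, a log2 fold change of -0.36, an SE of 0.08 and an adjusted p of 0.041 by limma. The call was lost in 7 of 13 alternative fits: without the mean-variance trend, with a replicate block, with the GC and length trend removed and on leaving out 4 of the libraries singly, with adjusted p values of 0.054 to 0.177 by limma. Of the 6 genes with the largest falls under continuous CHZ868, Ipo4 was at -0.13 (SE 0.11), Rrp9 at 0.11 (SE 0.12), Rrp12 at 0.18 (SE 0.11), Slc29a2 at 0.22 (SE 0.20), Ung at -0.08 (SE 0.15) and Pus1 at -0.15 (SE 0.11), none of which passed the test. The lowest values were in Nolc1 (-0.55, SE 0.16), Tcof1 (-0.42, SE 0.10), Ppan (-0.39, SE 0.10) and Tfb2m (-0.38, SE 0.13), with adjusted p values of 0.0697, 0.0509, 0.0559 and 0.112 by limma.

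The control library that stood apart was among the highest for several of these genes. Nolc1 was at 9.60, 9.45 and 10.17 in DMSO_wash_exp3 and at 9.12, 9.25 and 9.20 in CHZ_wash. Myc was at 9.31, 9.08 and 9.86 in DMSO_wash_exp3 and at 8.89, 8.86 and 8.90 in CHZ_wash, a log2 fold change of -0.53 (SE 0.16) that did not pass the test (adjusted p = 0.078 by limma). Replicate 3 of the control was the highest library for both genes. Without it Srm, Tcof1, Ppan, Nolc1 and Fbl were lower, 5 of the 41, with a background of 5.87% of all genes lower and 6.68% higher. Without replicate 2 of the control 6 were lower and 1, Wdr74, was higher, with a background of 6.2% and 5.23%. Of the 116 other pathway genes 2 (1.72%) were lower and 1 (0.862%) higher in the full comparison, with a background of 2.07% and 1.96%.

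At 6 h after washout of ruxolitinib, no gene of the list differed from control by the test. None of the 41 passed the test by limma (smallest adjusted p = 0.677, in Wdr43), with a background of 0.0229% of 13085 genes lower and 0% higher. Of the 41, 2 had an unadjusted p under 0.05 by limma, as did 920 of all 13085 genes. The median log2 fold change was 0.00, and every one of the 41 values lay between -0.19 and 0.16, with standard errors of 0.02 to 0.15. Srm was at 8.40, 8.38 and 8.48 in DMSO_wash and at 8.50, 8.59 and 8.45 in Ruxo_wash. Nop56 was at 9.09, 9.16 and 9.26 in DMSO_wash and at 9.15, 9.20 and 9.14 in Ruxo_wash. Both genes overlapped between the groups. Ncl was at 9.74, 9.73 and 9.74 in DMSO_wash and at 9.67, 9.69 and 9.70 in Ruxo_wash, a small difference without overlap (-0.05, SE 0.02, adjusted p = 0.696 by limma). Myc was at -0.02 (adjusted p = 0.937 by limma). The count stayed at 0 in each of the 13 alternative fits. Without DMSO_wash replicate 2, the library that stood apart, the 41 values lay between -0.26 and 0.16 with a median of 0.01.

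**Figure D5:**
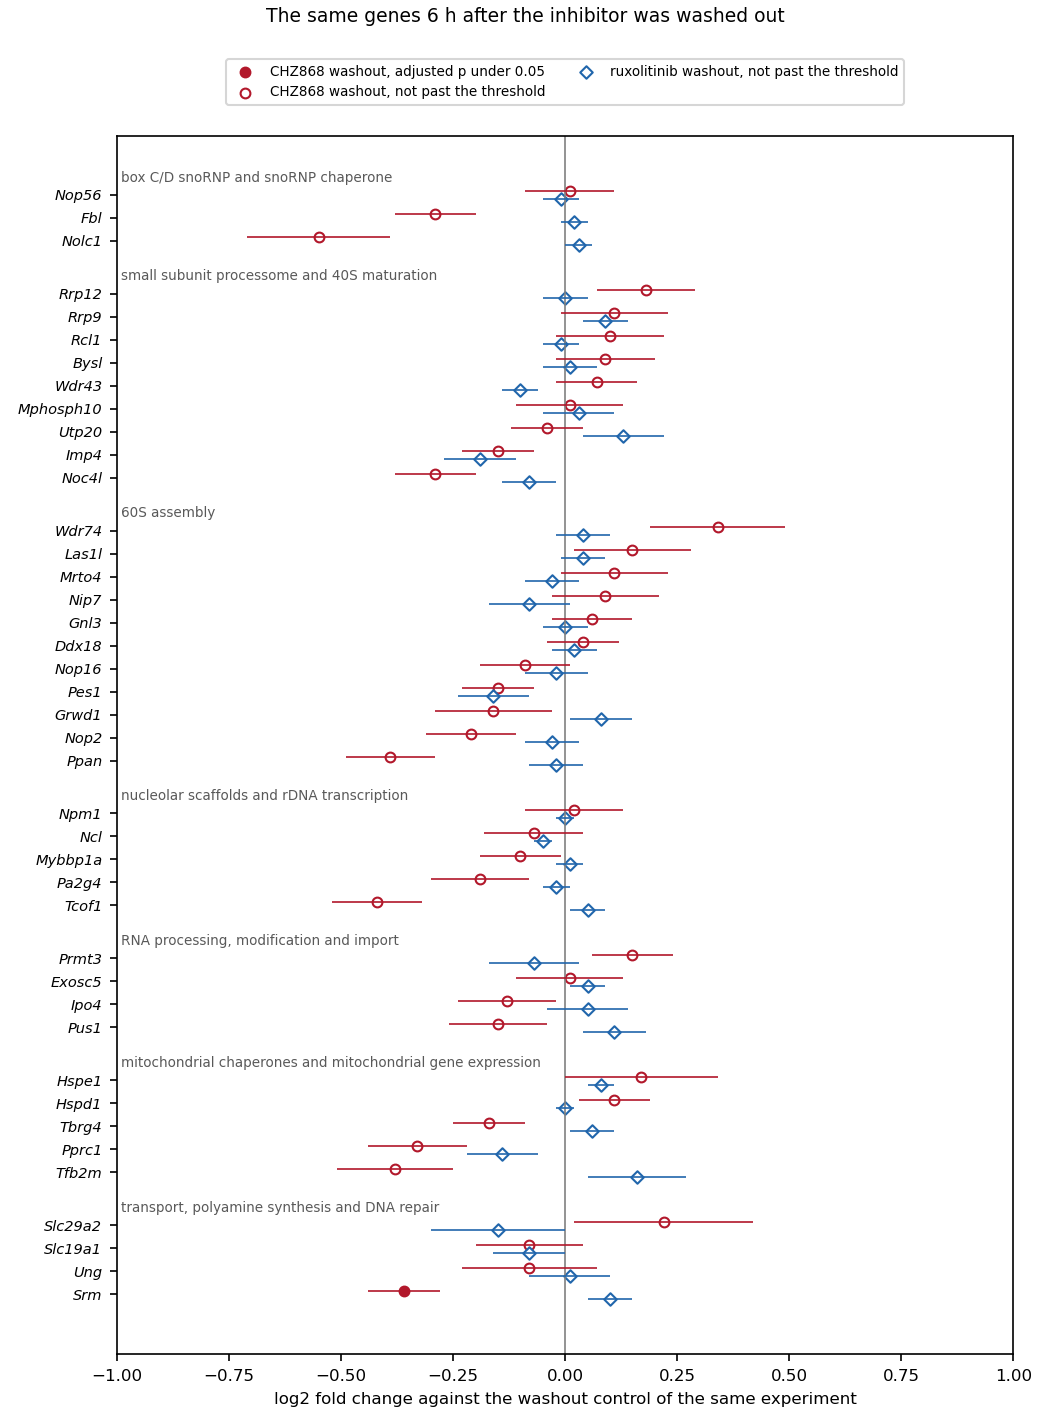
Log2 fold change of the 41 genes 6 h after washout of CHZ868 (circles) or ruxolitinib (diamonds), each against the solvent washout of the same experiment, with bars of 1 standard error (n = 3 per group). The filled circle is Srm at -0.36, and all diamonds lie between -0.19 and 0.16.

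The washout effects were compared in a fit over the 12 washout libraries and the 10078 genes that both tables hold, with the difference taken as the ruxolitinib effect minus the CHZ868 effect. Of the 41 genes 1, Srm, had a higher difference (0.46, SE 0.08, adjusted p = 0.0225 by limma) and 0 a lower one, with a background of 0.972% higher and 0.923% lower. The next were Tcof1 at 0.47 (adjusted p = 0.0598 by limma) and Fbl at 0.31 (adjusted p = 0.105 by limma). Of the 41, 7 had an unadjusted p under 0.05 by limma, as did 1903 of all 10078 genes. The median difference was 0.02. Inhibitor and experiment cannot be told apart here, since each inhibitor was washed out in an experiment of its own. Without DMSO_wash_exp3 replicate 3, Srm, Tcof1, Nolc1 and Fbl passed as higher, with a background of 2.6% of all genes higher and 2.66% lower. The Srm call was lost without 8 of the 12 libraries taken singly.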

How the data were processed

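RNA-seq values of 21 libraries in 7 groups of 3 were held in 4 tables. According to the methods of the study, the authors pseudo-aligned reads with kallisto to GRCm38 transcripts, summed them per gene, removed genes of low expression and normalized by TMM, whereas the submitters' processing notes name STAR 2.7.3a, edgeR 4.0.16 and GRCm39. The deposited values are log2 CPM per gene symbol with a small constant added. Removing that constant gave whole reads for 100% of low values (tolerance 0.05 reads) in 3 tables, and so their depth. The ruxolitinib washout table did not give whole reads. All value columns were used and no 2 libraries were identical.

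Groups within a table were compared by limma-trend (limma 3.58.1, R 4.3.3) with p adjusted by Benjamini-Hochberg over every gene tested and called under 0.05. A count test was not used because the values are log2 CPM. Ruxo_treated and DMSO_treated, which are in separate tables, were centred on each library's median over 11624 shared genes and described without a test. The fits were tested on simulated data. The 41 genes, their role groups, the 125 symbols listed for the rest of the pathway and the tests were chosen with earlier results of these data known. Library values are given for Npm1, Ncl, Fbl and Nop56, the 6 largest changes and all rises past the threshold with CHZ868, genes past it in a washout comparison, and Myc. Other pathway genes named are the 2 largest falls and 2 largest rises with CHZ868. Near copies (at least 90% identity over 300 bases) were found with minimap2 2.31-r1302. Alternatives were no mean-variance trend, median centring, quantile normalization, a mean log2 CPM of at least 1, log2(CPM + 1), a replicate block, GC and length correction, leaving out each library, an adjusted p of 0.01 and, for ruxolitinib at 6 h, uncentred values and a difference of at least 0.58.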

Additional observations from a re-analysis of the deposited data

Results flagged for a closer look

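Srm differed between the washout experiments in the test of the difference itself: the ruxolitinib washout effect minus the CHZ868 washout effect was 0.46 on the log2 scale (adjusted p = 0.0225 by limma), with Srm lower in 3 of 3 CHZ_wash libraries than in every control library. The call was lost in 11 of 19 alternative fits, at an adjusted p by limma of 0.0674 without the mean-variance trend, 0.0923 with a replicate block and 0.128 with the GC and length trend removed, and without 8 of the 12 libraries taken singly. At 6 h, 3 genes had all CHZ868 libraries on one side of the DMSO mean and all ruxolitinib libraries on the other, and this difference was not tested. The share of all genes that meet this rule is not given here, so the count has no background. CHZ_treated minus Ruxo_treated was 0.91 for Nolc1, 0.77 for Pa2g4 and 0.26 for Pes1 on the centred log2 scale. Pes1 differed from DMSO by -0.02 with ruxolitinib, within the spread of its replicates.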

How the results depend on the processing

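Under CHZ868 for 6 h the count of lower genes ran from 28 to 32 over the alternatives, 27 of the 29 genes kept the call in all 14 fits, and the median moved by no more than the replicate spread. The 6 higher genes became 2 without the mean-variance trend, 2 after quantile normalization and 3 at an adjusted p of 0.01, Npm1 turned to -0.37 after quantile normalization, and Imp4, which did not pass the test, was at -0.01 without CHZ_treated replicate 3. With ruxolitinib at 6 h the 33 lower genes became 20 when a difference of at least 0.58 was required, and the median was -0.62 after quantile normalization. For CHZ868 against ruxolitinib the 16 genes without overlap, 3 lower and 13 higher, became 3, 1 and 2 at a difference of at least 0.58. The shares of all genes at that difference are not given here, so neither count at 0.58 can be set against a background. Leaving out single libraries gave 16 to 25 genes, 3 to 6 of them lower, and medians of 0.08 to 0.17. The background was then 21.3% to 28.7% of all genes lower and 18.5% to 28.7% higher. The median was 0.06 without centring and 0.16 with the GC and length trend removed.

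After CHZ868 washout the count of 1 gene called became 0 without the trend. It became 2 after centring, with 247 of all genes lower and 200 higher. After quantile normalization it became 3 (median -0.01), with 297 of all genes lower and 271 higher. It became 0 with GC and length removed (22 of all genes called, against 457) and 0 at an adjusted p of 0.01 (0 of all genes). Without single libraries it was 0 to 7 (0 to 1426 of all genes). Without the trend 0 of all genes passed. For the difference of washout effects the 1 gene became 0 without the trend (14 of all genes, against 191), 0 with GC and length removed (38), 0 at an adjusted p of 0.01 (4) and 0 to 4 without single libraries (5 to 628 of all genes, medians of 0.01 to 0.07). For the ruxolitinib washout the 3 of all genes called became 9 without the trend, 0 at an adjusted p of 0.01 and 0 to 1 without single libraries. The cause of these changes was not tested. Where a library is left out, the number of samples is also smaller.

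Replicate numbers did not pair the libraries, since deviations of same-numbered libraries correlated at -0.05 to 0.05. With a replicate block 35 genes were called under CHZ868 at 6 h. After CHZ868 washout 3 were called, Nolc1, Ppan and Tcof1, with 296 of all genes lower and 243 higher. Srm did not pass there, at an adjusted p of 0.054 by limma. The count was 0 for the difference (6 of all genes), and 0 of all genes passed after ruxolitinib washout.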
